A study of Homo sapiens with 2 samples.

Results

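RABGAP1L, a gene of 836 kb on the long arm of chromosome 1, held the 5-kb bin with the most interactions on that chromosome in TCF3::HLF-HiChIP of HAL-01 cells. The bin, referred to here as the hub, spans chr1:174940001-174945000 (hg38) and was selected by its measured number of interactions, 38. Its rank (10 of 53535 bins that take part in an interaction) and that number are therefore a description and not a finding. Interactions of the gene were those with a bin overlapping the annotated body of RABGAP1L (ENSG00000152061.24, chr1:174159410-174995308, plus strand) or the 10 kb on either side. They numbered 98 of the 49245 interactions of the list, and 38 of them were those of the hub. The hub interactions with the largest q-values, close to the limit of 0.01 that the authors set, had a q-value of 0.00905 (partner bin starting at 172570001, contact count 15) and of 0.00622 (partner bin starting at 175190001, contact count 19).

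The series consists of a single condition with 2 biological replicates. Both come from HAL-01, an established B cell acute lymphoblastic leukemia line with t(17;19) that expresses Cas9GFP and in which wild-type TCF3 was knocked out with an sgRNA, so that an antibody against E2A (TCF3) precipitates the fusion protein TCF3::HLF. The knockout line was grown from diluted cells as a clone, so the values describe 1 genotype without an untreated or wild-type control. HiChIP joins chromatin immunoprecipitation with proximity ligation, and a contact count is the number of read pairs that join 2 bins. The authors merged the replicates before interactions were called, so no value has a replicate error and no difference was tested. Exact Poisson 95% intervals (contact counts) and Wilson 95% intervals (shares) cover counting error only, and reads were not deduplicated, so the true error is larger. Contact counts of all listed interactions added up to 1268490, with a median of 24 per interaction.

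RABGAP1L encodes a protein with a TBC domain, the catalytic domain of proteins that stimulate GTP hydrolysis by Rab GTPases, the small switch proteins that direct vesicle traffic. It is best known for roles in endosomal transport. TCF3::HLF carries the transactivation domains of TCF3 and the basic leucine zipper of HLF, a member of the PAR bZIP family that binds DNA as a dimer at a palindrome-like sequence. Introns of long genes commonly hold enhancers, and an enhancer may contact promoters of its own gene or of genes further away. HiChIP records such proximity and does not show which gene is regulated.

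The hub lay 781 kb from the start of RABGAP1L and 50 kb from its end. It fell in the intron of 145 kb between exon 19, which ends at 174811960, and exon 20, which starts at 174957457, of the 26 exons of the reference transcript RABGAP1L-223. It also lay in an intron of RABGAP1L-AS1, an antisense long non-coding RNA (chr1:174934947-174954261, minus strand). It held 0 annotated exons and 0 start sites of any gene. The bin held 1 exact match to the HLF motif, searched as TTACGTAA or TTATGTAA on both strands. The match was TTATGTAA at chr1:174942976-174942983 on the minus strand. The 200 bases of hg38 around it (chr1:174942880-174943079, minus strand, 5′ to 3′) are shown because they hold the only motif of the hub, in capitals.
Hub: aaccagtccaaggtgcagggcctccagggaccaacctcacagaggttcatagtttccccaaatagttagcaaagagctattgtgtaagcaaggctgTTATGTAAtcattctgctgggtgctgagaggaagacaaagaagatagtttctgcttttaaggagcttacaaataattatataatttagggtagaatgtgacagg

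Further motifs lay in bins that contacted the hub. Those shown next are the motif of the bin of the gene with the next largest number of interactions (chr1:174789034-174789093, minus strand), both motifs of the partner bin that starts at 174855001 (chr1:174855104-174855163 and chr1:174855552-174855611, minus strand), the motif of the partner bin that starts at 174880001 (chr1:174882641-174882700, minus strand) and that of the partner bin at the KLHL20 promoter (chr1:173712373-173712432, minus strand). Each is 60 bases of hg38, 5′ to 3′, with the motif in capitals. The first 4 lie in introns of RABGAP1L and the last lies between genes, upstream of KLHL20.
Bin 174785001: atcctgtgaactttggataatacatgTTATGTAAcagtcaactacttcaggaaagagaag
Partner 174855001, motif 1: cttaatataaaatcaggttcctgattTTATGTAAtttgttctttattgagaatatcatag
Partner 174855001, motif 2: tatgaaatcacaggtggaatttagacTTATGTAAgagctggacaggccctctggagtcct
Partner 174880001: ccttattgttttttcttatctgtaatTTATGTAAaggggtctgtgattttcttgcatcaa
Partner at KLHL20: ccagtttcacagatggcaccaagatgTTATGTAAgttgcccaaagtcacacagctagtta

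All of these motifs had the form TTATGTAA. In the hub the base before it was g and the base after it was t, and in the bin 174785001 these were g and c. With A or G before the core and C or T after it, the motif takes the longer form often given for PAR bZIP dimers, and of the 7 bins of the gene with 5 or more interactions, 2 held that form, namely the hub and bin 174785001, which had the largest numbers of interactions. Of the other 43 bins of the gene with an interaction, 4 (9.3%; 3.68 to 21.6) held it. For the 7 bins the share was 28.6% (8.22 to 64.1), so the intervals overlapped. It occurred in 8.06% of all 5-kb bins of chromosome 1 and in 41.8% (Wilson 95% interval, 39.0 to 44.7) of the 1126 bins of the list with 10 or more interactions. This form was looked at after the sequences had been seen and the bins were chosen by their number of interactions, so these shares are descriptions.

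The 38 interactions of the hub had contact counts of 15 to 118 (median, 28), and they added up to 1456, which is 46.7% of the 3118 contact counts of the gene. The counts fell with distance. At 50 to 100 kb the 6 interactions had a median of 87.5 (range, 31 to 118), against 26 for all 10500 interactions of that range in the list. At 100 to 250 kb the 12 interactions had a median of 35 (range, 19 to 90), against 24 over all interactions. At larger distances the medians lay closer to those of the list. The 9 interactions at 250 kb to 1 Mb had a median of 24 (all, 23) and the 11 interactions at 1 to 3 Mb had a median of 25 (all, 21). Single contacts at these distances still stood high, such as that with bin 174290001 in the first part of RABGAP1L, which had a contact count of 40 (28.6 to 54.5) at 650 kb, 1.82 times the same-distance median and rank 1 of 99. Bin 174330001 had 33 read pairs at 610 kb, 1.5 times the median and rank 13 of 93. The rank correlation of distance and contact count over the 38 interactions was -0.656, a description over partners that share the hub bin.

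**Figure D1:**
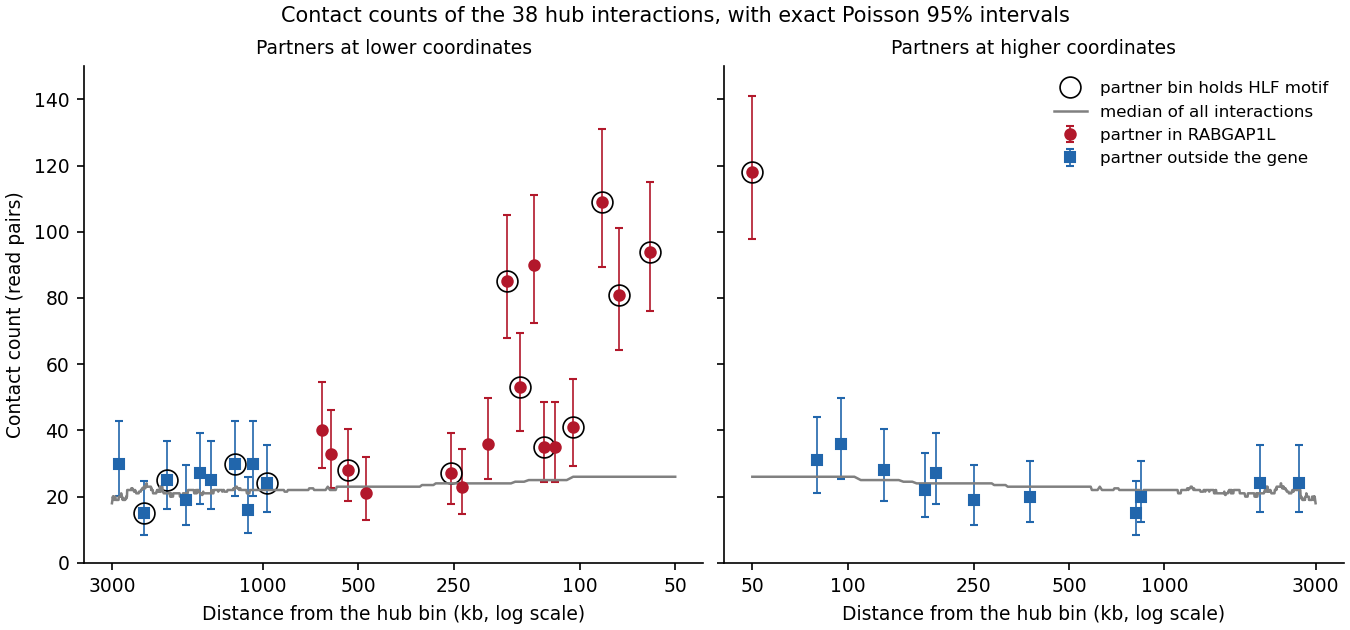
Contact count (read pairs, vertical axis) of each of the 38 interactions of the RABGAP1L hub against distance (kb, log scale) on either side, with exact Poisson 95% intervals as bars. Red circles are partners in RABGAP1L, blue squares are partners outside it, black rings mark partner bins with an HLF motif, and the gray line is the median of all listed interactions, smoothed over neighboring distances. The 7 interactions that stand at 53 or more read pairs all have partners in the gene and lie within 170 kb of the hub.

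Relative to all interactions of exactly the same distance, 7 of the 38 hub interactions (18.4%; Wilson 95% interval, 9.22 to 33.4) had a contact count at least 2 times the median. In the whole list 3.2% of interactions passed this fold. All 7 joined the hub to other parts of RABGAP1L. The ratio uses raw read pairs and does not correct for the coverage of a bin. The hub was chosen for its many interactions, and how far its coverage raises these ratios was not tested. The largest contact count was 118 (Poisson 95% interval, 97.7 to 141) with the bin that starts at 174990001, 50 kb away at the last part of the gene, which is 4.37 times the same-distance median and rank 9 of 1393 interactions. This bin lies within 10 kb of the start of CACYBP, which encodes the calcyclin-binding protein. It held 2 HLF motifs, which lie in annotated exons of RABGAP1L.

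On the other side of the hub, 6 further bins of RABGAP1L passed this fold. The bin starting at 174855001, 85 kb away and with the 2 motifs printed above, had a contact count of 109 (89.5 to 131), which is 4.19 times the same-distance median and rank 2 of 786. The bin at 174880001, 60 kb away, had a contact count of 94 (76.0 to 115). Their intervals overlapped. The bin at 174800001, 140 kb away, had a contact count of 90 (72.4 to 111), the largest of all 558 listed interactions of that distance. It held no HLF motif and starts 69 bases past the start of the transcript RABGAP1L-218, 1 of the shorter protein coding transcripts of the gene. The bin at 174770001 had 85 read pairs (67.9 to 105), the bin at 174865001 had 81 (64.3 to 101) and the bin at 174785001 had 53 (39.7 to 69.3). The intervals of these bins overlapped each other, apart from that of bin 174785001, which lay below those of bins 174855001, 174880001 and 174800001.

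Contacts within the gene and outside it differed in size. The 17 partners in the gene had contact counts of 21 to 118 (median, 40; sum, 949) and a median ratio to the same-distance median of 1.64. The 21 partners outside it had contact counts of 15 to 36 (median, 24; sum, 507) and a median ratio of 1.08, and 0 of them passed the 2-fold limit. The ranges overlapped between 21 and 36. Partners outside the gene were also further away (median, 1075 kb against 155 kb). Over the full sets, distance and position in the gene cannot be told apart. The same-distance ratio does not separate them, because the ratios at the hub fell with distance as well. The largest was 4.37 at 50 to 100 kb and 1.43 at 1 to 3 Mb. Both kinds of partner occurred between 75 and 190 kb, with ratios of 1.35 to 4.19 in the gene and 0.898 to 1.38 outside it. In that range all partners in the gene lay at lower coordinates and all those outside it at higher coordinates. Side and position in the gene therefore cannot be told apart there.

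More partners lay on the side of the gene's start. Of the 38 partners, 26 (68.4%; 52.5 to 80.9) lay at lower coordinates, 60 to 2845 kb away, and 12 lay at higher coordinates, 50 to 2655 kb away. Imbalance of this size was common. Of the 1126 bins with 10 or more interactions, 43.5% had at least this share on their larger side. The lower side had a contact count sum of 1072 and a median of 30, and the higher side a sum of 384 and a median of 24. Within 200 kb the numbers were 10 and 6. At 130 kb, the distance that occurred on both sides, the contact counts were 35 (lower) and 28 (higher), with overlapping Poisson intervals.

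Long contacts were frequent at the hub. Of its 38 interactions, 11 (28.9%; 17.0 to 44.8) spanned more than 1 Mb, against 13.7% of all listed interactions, and 9 of the 11 ran to lower coordinates past the start of the gene. The hub ranked 111 among the 1126 bins with 10 or more interactions by this share, for which the median bin had 10.0%. The longest joined the hub to DNM3, which encodes the endocytic GTPase dynamin 3, over 2845 kb with a contact count of 30 (20.2 to 42.8). Partners were unevenly spaced. The stretch from 173970001 to 174290000, which covers the main promoter of RABGAP1L, held no partner, and the longest such stretch ran from 175790001 to 176950000.

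**Figure D2:**
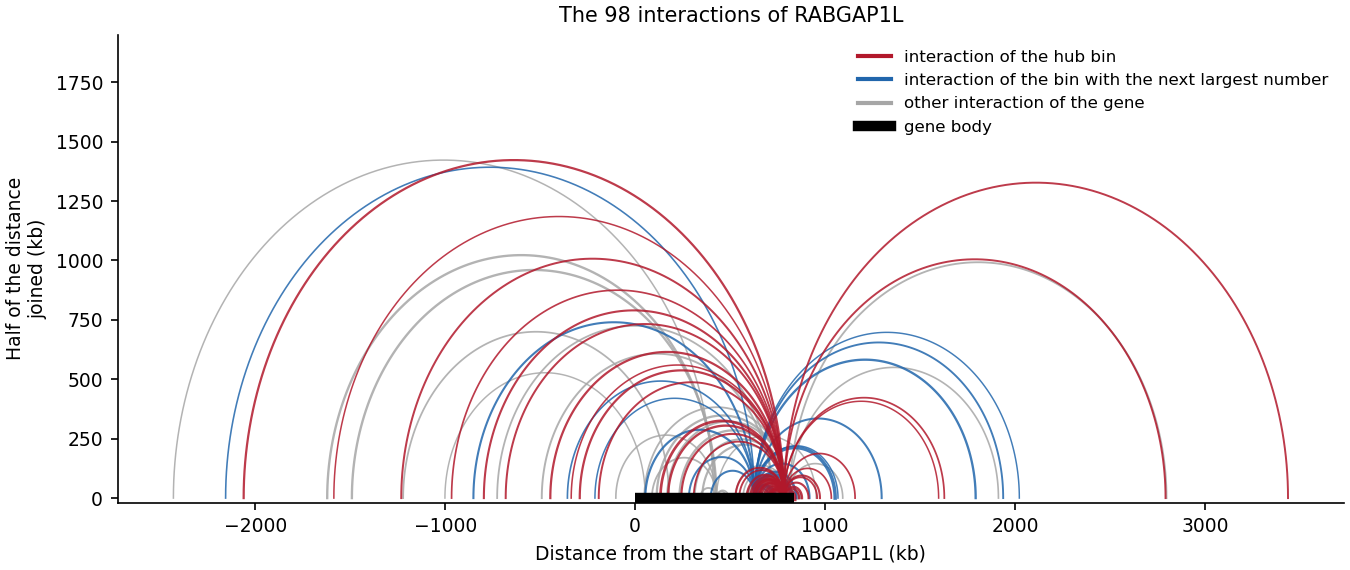
Each of the 98 interactions of RABGAP1L as an arc between its bins, placed by distance from the start of the gene (kb), with arc height equal to 0.5 of the distance joined (kb) and line width growing with the contact count. Red arcs belong to the hub (38), blue arcs to bin 174785001 (its contact with the hub is red), gray arcs to other bins, and the black bar is the gene body. Most long arcs leave from the last 250 kb of the gene, and few leave from its first 200 kb.

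Start sites of genes lay in 9 of the 38 partner bins (23.7%; 13.0 to 39.2), against 19.4% of all bins that take part in an interaction. The background lay inside the interval. All 9 were among the 21 partners outside RABGAP1L (42.9%; 24.5 to 63.5), and 0 of the 17 partners in the gene held a start site. Of the 30 protein coding genes within 3 Mb of the hub, 7 had a start site in a partner bin, 12 had one within 10 kb of a partner bin and 15 had a body that a partner bin overlapped. GPR52, a receptor gene that lies within RABGAP1L, was overlapped by 0 partner bins of the hub.

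On the lower side, promoters of several protein coding genes were joined to the hub over more than 1 Mb. The bin at the start of KLHL20, which encodes a substrate adaptor of the CUL3 ubiquitin ligase, had a contact count of 30 (20.2 to 42.8) at 1230 kb, 1.33 times the same-distance median. Of the 6 partner bins with a protein coding start site, it was the one that also held the HLF motif. The bin with the divergent starts of ZBTB37, a zinc finger gene, and GAS5, the host gene of several small nucleolar RNAs, had 30 read pairs at 1075 kb, 1.43 times the median. PRDX6, which encodes a peroxiredoxin, had 25 read pairs at 1465 kb. Poisson intervals of these counts overlapped one another, so no order among the promoters was established.

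The other partners on that side lay in gene bodies or at non-coding starts. The bin at 173965001, in the body of RC3H1 (the RNA-binding protein roquin 1) and within 10 kb of a start of it, had 24 read pairs at 975 kb and held the motif. The bin at 172570001 in SUCO had 15 read pairs at 2370 kb. The bin at 173190001 in TNFSF4, which encodes the OX40 ligand, had 19 read pairs at 1750 kb. The bin at 173360001, with the start of the gene ENSG00000231615, had 27 at 1580 kb, and the bin at 172925001, in ENSG00000224228, had 25 at 2015 kb. None of these counts passed 2 times the median of its distance.

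On the higher side, the bin with the start of MRPS14, which encodes a protein of the mitochondrial small ribosomal subunit, had a contact count of 31 at 80 kb, 1.15 times the same-distance median. The bin with a start of KIAA0040 had 19 at 250 kb, 0.792 times the median. The body of TNN, which encodes tenascin N of the extracellular matrix, had contact counts of 28 at 130 kb, 22 at 175 kb and 27 at 190 kb. TNR (tenascin R) had 20 at 375 kb and ASTN1, which encodes the neuronal protein astrotactin 1, had 24 at 2010 kb. The bin with the start of ENSG00000227579 had 24 at 2655 kb. The 11 partners past the end of the gene had a median ratio of 1.0 to the same-distance median, and 0 of them passed the 2-fold limit. The 6 partner bins with a protein coding start site on either side (contact counts 16 to 31; median, 27.5) overlapped the other 15 partners outside the gene (15 to 36; median, 24).

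The start sites of RABGAP1L itself were also placed on the list. The 23 annotated transcripts start in 12 bins, of which 3 took part in any interaction, beside 50 of all 173 bins of the window. The bin with the main promoter, 174155001, where 5 transcripts start, had 0 interactions, and its nearest hub partner began more than 130 kb away. The bin of the start sites of RABGAP1L-206 and RABGAP1L-215, 174960001, had 10 interactions. The bin 174870001 had 2 and the bin 174975001 had 1. Among the 12 bins, 4 lay within 10 kb of a partner of the hub, including bin 174700001 with 5 transcript starts and bin 174875001 with 2. The list holds no contact under 50 kb, so contacts of the hub with start sites closer than that, such as bin 174960001, were not analysed here. Of the 8 RABGAP1L promoter windows in RefSeq (GRCh38.p14; 250 bases before to 50 after a start), 0 held the HLF motif, against 1.01% of 35116 promoter windows of all genes.

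The interactions of the gene, those of the hub included, were spread over few bins. Of the 173 bins in the window, 50 took part in an interaction, 33 of them in a single one, and 7 in 5 or more. Of the 98 interactions, 94 had an end in 1 of those 7 bins, and 2 joined 2 of them. In the list 76.2% of interactions had an end in a bin with 5 or more. The 94 include the 38 interactions of the hub, which was chosen for its number, so their share beside that of the list is a description. After the hub came bin 174785001 with 21, bin 174960001 with 10, bin 174880001 with 8, and bins 174585001 and 174970001 with 7 each. The bins immediately beside the hub were listed with 0 interactions, at a distance of 1 or 2 bins on either side. Of the hub's interactions, 30 of 38 (78.9%) were single bin pairs, against 92.3% in the list. In the rest neighboring contacts had been merged into groups, which bears on that 0. The hub's interactions with bins 174785001 and 174800001 are 2 entries of 1 merged group (summed contact count, 268). That group is thus counted 2 times among the 38 interactions and among the 7 past the 2-fold limit.

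Bin 174785001 lay 155 kb from the hub in the same gene and ran mostly the other way. Of its 21 interactions, 7 went to lower and 14 to higher coordinates. It shared 2 partner bins with the hub, and 4 of its partners lay within 1 bin of a hub partner. Its strongest contact was with bin 174980001 near the end of the gene, with a contact count of 66 (51.0 to 84.0) at 195 kb. It also contacted bin 175210001, 425 kb away and past the gene's end, with a contact count of 57 (43.2 to 73.9), 2.48 times the same-distance median. Of the 11 interactions of the gene past the 2-fold limit it was the one that left the gene, and it belonged to bin 174785001, not to the hub. The bin with the start of CACYBP had a contact count of 37 with it, and the bin with a start of COP1, which encodes a ubiquitin ligase, had 14 at 1395 kb.

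Without the hub, the gene kept 60 interactions with contact counts of 14 to 66 (median, 25; sum, 1662), of which 4 (6.67%; 2.62 to 15.9) passed the 2-fold limit and 14 spanned more than 1 Mb. Both ends lay in the gene window for 52 of the 98 interactions. The other 46 left it, 22 to lower coordinates (10 from the hub) and 24 to higher coordinates (11 from the hub). A bin in FASLG, the gene of Fas ligand, was among the outside ends, with a contact count of 33 at 1920 kb from bin 174585001. That bin held no HLF motif, and 64.3% of its 31-base sequences occurred once in hg38, which is the lowest share among the bins examined. The hub had 86.7%, so most of its sequence can be placed uniquely. Shared 31-base sequences between the hub and its partners numbered at most 27 of 4970.

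HLF motifs occurred in partner bins of the hub and in bins beside them. The exact motif occurred in 14 of 38 partner bins (36.8%; 23.4 to 52.7), in 14 of 55 bins 25 kb from a partner that took part in no interaction (25.5%; 15.8 to 38.3), and in 28.6% of all bins of chromosome 1. The intervals overlapped, and in bins 50 kb from a partner the share was 35.2%. Partners in the gene held it in 10 of 17 bins (58.8%; 36.0 to 78.4) and partners outside in 4 of 21 (19.0%; 7.67 to 40.0). The window itself was richer than the chromosome, with the motif in 71 of 173 bins (41.0%; 34.0 to 48.5). The 14 interactions with the motif at both ends had a median contact count of 38 (range, 15 to 118) and the 24 with the motif in the hub alone a median of 26 (range, 15 to 90), and the ranges overlapped. Of the 14, 10 had their partner in the gene, where partners lay closer to the hub. Motif, distance and position in the gene cannot be told apart in these medians.

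Beside the hubs of 3 other genes, each the bin of its gene with the most interactions, the RABGAP1L hub had more partners with a start site, with overlapping intervals. The hub bins of RXRA, a nuclear receptor gene, SNTG1, a syntrophin gene, and PHACTR2, a regulator of phosphatase and actin, had 40, 51 and 49 interactions. Start sites lay in 7 of 40 partners (17.5%), 3 of 51 (5.88%; 2.02 to 15.9) and 7 of 49 (14.3%), against 9 of 38 (23.7%; 13.0 to 39.2) at RABGAP1L. A share of at least 23.7% was common, as 315 of the 1126 bins with 10 or more interactions had it. The median of those bins was 16.7%. The share past the 2-fold limit was similar, with 18.4% at RABGAP1L, 22.5% at RXRA, 15.7% at SNTG1 and 16.3% at PHACTR2. The share over 1 Mb was 28.9% at RABGAP1L, 15.0% at RXRA, 31.4% at SNTG1 and 18.4% at PHACTR2, with overlapping intervals. The sides differed. RABGAP1L had 26 lower and 12 higher partners and RXRA 21 and 19, whereas SNTG1 had 11 and 40 and PHACTR2 17 and 32. The hub of RXRA held no exact HLF motif, those of SNTG1 and PHACTR2 held 2 each, and motif shares among partners ran from 5.0% (RXRA) to 45.1% (SNTG1).

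**Figure D3:**
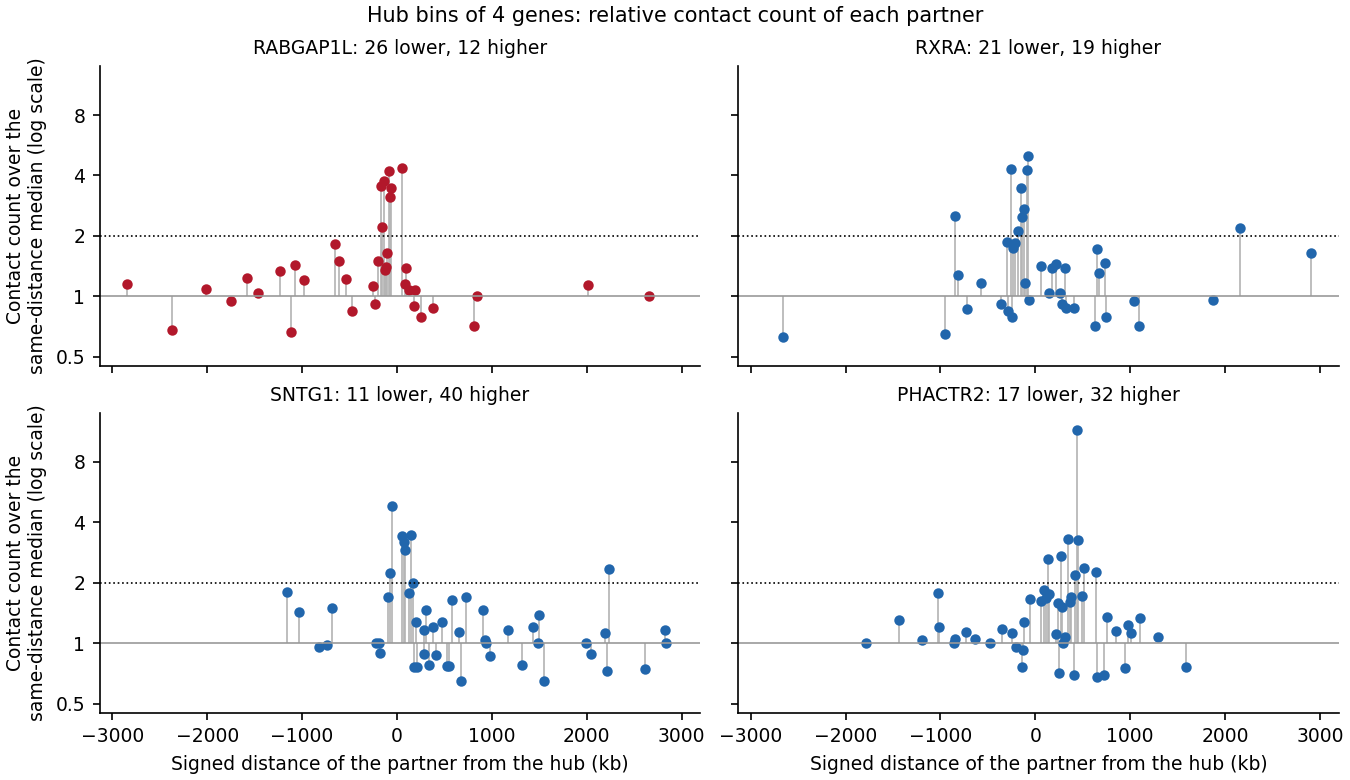
Contact count of each partner divided by the median of all interactions of the same distance (log scale, vertical axis) against the signed distance of the partner (kb), for the hub bins of RABGAP1L (red), RXRA, SNTG1 and PHACTR2 (blue). The gray line marks a ratio of 1 and the dotted line the 2-fold limit. At RABGAP1L the points over the limit sit within 170 kb of the hub, whereas at RXRA, SNTG1 and PHACTR2 some lie further away.

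Genes of proteins related to RABGAP1L were counted in the same way. Of 40 genes with a TBC domain, 35 (87.5%; 73.9 to 94.5) had at least 1 interaction, against 64.3% of 20007 protein coding genes. The median was 4 per gene and 10 genes had 10 or more. RABGAP1L (98) was followed by TBC1D5 (92), which acts on RAB7 in retromer-dependent sorting, TBC1D8 (31), TBC1D7 (27), a subunit of the TSC complex, and USP6NL (26). RABGAP1L was chosen for the number of interactions of its hub, so its place in this order is a description, and without the 38 interactions of the hub it had 60, below TBC1D5. Longer genes hold more bins, so the number per length is given as well. Per 100 kb of window, RABGAP1L had 11.4 interactions, TBC1D5 7.04, TBC1D8 11.7, TBC1D7 32.9, USP6NL 15.2 and the paralog RABGAP1 10.9. With the hub included, RABGAP1L ranked 9 of 20007 protein coding genes by number and 2053 by density. Among the 355 genes with a window of at least 500 kb it ranked 10 by density, where the median was 1.16.

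Rab GTPases of the endosomal and recycling pathway were listed in part. Of 16 genes, 14 (87.5%; 64.0 to 96.5) had an interaction. RAB14, a Rab of the early endosome and recycling route, had 46 (70.9 per 100 kb), RAB10 had 13, RAB7A had 12 and RAB22A had 10. RAB11B and RAB35 had 0. Both lists are small and the windows of their genes differ in length, so these shares are read beside the background and not as enrichment.

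**Figure D4:**
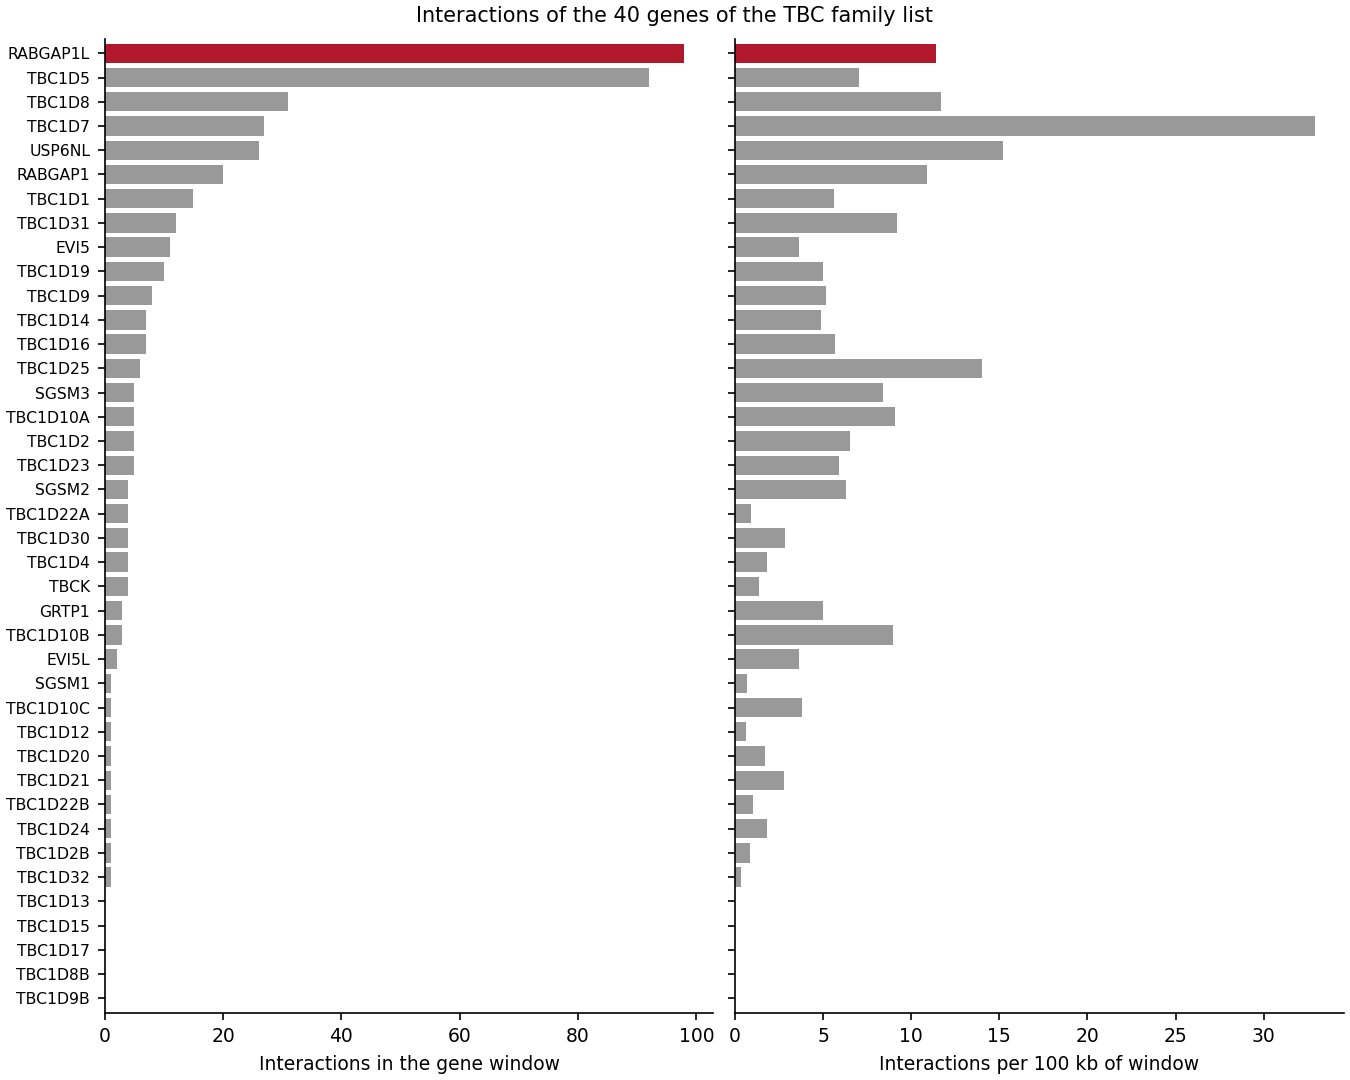
Number of interactions in the gene window (left) and number per 100 kb of window (right) for each of the 40 genes of the TBC family list, ordered by number, with RABGAP1L in red. RABGAP1L stands at 98 with the hub for which it was chosen and at 60 without it, beside 92 for TBC1D5, and TBC1D7 has the highest density with 32.9 per 100 kb against 11.4 at RABGAP1L.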

How the data were processed

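HiChIP with an antibody against E2A was carried out in HAL-01 TCF3_KO cells (2 biological replicates). The following comes from the methods and the submitters' processing notes. The authors trimmed reads with TrimGalore 0.6.6, merged the replicates and aligned them to hg38 with BWA-MEM. They parsed contacts with pairtools without deduplication and used MACS2 peaks as reference. Interactions were called with FitHiChIP (version not given in the sources used here) at a q-value limit of 0.01. Bins were of 5 kb, 50 kb to 3 Mb apart. Neighboring contacts were merged into groups, and a group can hold more than 1 entry. In the deposited list, contact counts are raw read pairs, and sumCC adds the contact counts over the merged group of an entry. The deposited p-value and q-value are those of FitHiChIP against its distance and coverage background, and a deposited fraction gives how many of an entry's bin pairs were significant. The q-value selected the listed interactions, and the authors' values are given as deposited.

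Bins are printed 1-based. Genes and transcripts came from GENCODE release 44 and 0 bins lay past the end of an hg38 chromosome. Each contact count was divided by the median of all interactions of the same distance, without correction for the coverage of the bins. Anchor bins are the bins named in the list as the ends of an interaction. With 1 merged list there was no test, and ranks, counts and intervals (exact Poisson and Wilson, 95%) are descriptions. The members and gene lists were chosen with earlier results of these data known. Named genes were RABGAP1L, genes with a start site in or within 10 kb of a partner bin or overlapped by a partner bin, protein coding genes in the window, the interactions with the largest contact counts and smallest p-values, the bins with the most interactions and the leading genes of the TBC list. FASLG and COP1 and the other outside ends of the gene, the members of the Rab list, and the longer HLF motif were named after their values were seen. The values of 1 partner bin of the hub are counted in the totals and not reported here by gene. The functions for the same-distance ratio and for the motif search were tested on simulated data. Other settings tried were q-value limits of 0.001 and 1e-05, contact counts from 20 upward, interactions no longer than 1 Mb, wider or merged bins, single bin pairs, the gene body alone, other reference sets for the same-distance ratio, a looser and a longer motif, control bins 50 kb away, and 10 kb around start sites. The tools were samtools 1.23.1 and Python 3.11.15 with numba 0.67.0, scipy 1.17.1, pandas 2.3.3, matplotlib 3.10.9, numpy 2.4.6 and pyfaidx 0.9.0.4.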

Additional observations from a re-analysis of the deposited data

How the results depend on the processing

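Of 31 alternative settings over 8 results, 25 kept the value and 6 moved it. A value was kept within 1.5 times the reported one (counts and ranks) or within its Wilson interval (shares). The setting with control bins 50 kb away is among the 25 by construction. It changed only the control bins and not the share of partner bins that was judged. With a q-value under 1e-05 the hub had 25 interactions, the gene 65, and the share of hub partners at lower coordinates was 84.0%. With 10 kb around each bin, start sites were found for 21 partner bins of the hub. With 1 mismatch allowed outside the central bases of the HLF motif, 92.1% of partner bins and 96.4% of bins 25 kb away held it. With A or G before the core and C or T after it, a setting chosen after seeing the data, 2.63% of partner bins and 10.9% of bins 25 kb away held it. In both of these settings the partner bins lay below the bins beside them, whereas with the exact motif they lay above (36.8% and 25.5%). The rank of the hub lay between 9 and 15 under the other settings. At a q-value under 1e-05 the exact motif was in 52.0% of the remaining partners and 24.2% of their flanking bins, and with control bins 50 kb away the shares were 36.8% and 35.2%. No paired analysis was possible because the 2 replicates belong to a single group and were merged before interactions were called. For the same reason neither replicate could be left out. Depth limits single counts: a contact count of 15 has a Poisson 95% interval of 8.4 to 24.7.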
